A study of Mus musculus with 8 samples.

Results

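Splicing regulators of the SR, hnRNP, CELF, MBNL, PTBP, RBFOX and ESRP families were followed at the mRNA level through postnatal maturation of the mouse liver. Members were matched by gene symbol, from the names of the families, and 47 of the 22059 genes in the count tables matched. The families were picked with earlier results of these data known. They comprised 11 SR genes (Srsf), 20 hnRNP genes (Hnrnp, with Hnrpdl and Hnrpll under their older symbols), 6 Celf, 3 Mbnl, 2 Ptbp, 3 Rbfox and 2 Esrp genes. The match itself used no measured value. RNA from whole livers of FVB mice (FVB/NJ in the study's methods) was sequenced at embryonic day 18 (E18), postnatal day 14 (P14), postnatal day 28 (P28) and adulthood, with 2 samples per stage and 8 in all. The mice are described as wild type, no treatment is named, and the labels do not give the sex. The code in the titles of the adult samples and the general methods point to an adult age of 3 months. The 2 samples of a stage are described as biological duplicates, although the number of livers in each is not given.

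SR proteins and hnRNPs are the general vocabulary of splice-site choice: SR proteins bind exonic enhancers and recruit the spliceosome, whereas many hnRNPs bind silencers and counter them. The smaller families act in a more tissue-restricted manner. ESRP proteins set epithelial exon choice, MBNL and CELF proteins act on many of the same developmental exons and often in opposite directions, PTBP proteins mostly repress exons, and RBFOX proteins bind a short motif and promote or repress an exon according to the side on which they sit. Late fetal liver is also a blood-forming organ, so that a sample of whole liver holds erythroid and myeloid precursors besides hepatocytes, and these leave after birth.

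Between 68154675 and 106055723 reads per sample fell on genes, and 46 of the 47 members passed the filter on low counts, among 17081 genes tested. Celf6, one of the CELF genes best known from brain, did not pass. It had 30 and 8 reads at E18, then 1 and 4 at P14, then 2 and 0 at P28, and 2 and 0 in adults. Levels were compared on 2 scales. Total scaling divides by the reads on genes. Composition scaling (the TMM factors of edgeR) also adjusts each library size, on the assumption that most genes do not change between samples. From E18 to adult 43.8% of all genes fell and 39.5% rose on that scale, so neither scale is shown to be the right one. The choice matters here because the TMM factors were 1.60 and 1.54 at E18 and 0.847 to 0.888 at the later stages. Going from composition to total scaling lowered log2 changes from E18 to adult by 0.85 at the median and those from E18 to P14 by 0.87, and moved the later steps by at most 0.03. A gene was called changed at a false discovery rate (FDR, Benjamini-Hochberg over all tested genes, edgeR quasi-likelihood test) below 0.1, and log2 values carry their standard error (SE).

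The make-up of the samples moved with stage. Summed over 6 erythroid markers, composition-scaled levels (CPM, read counts brought to one common library size) were 7570 and 9850 at E18 and 60.7 to 75.7 in the 6 later samples. The 4 proliferation markers fell from 1800 and 2030 CPM at E18 to 162 and 180 at P14, then 39.7 and 31.2 at P28, and 3.68 and 3.49 in adults. Hepatocyte markers summed to 42500 and 43200 CPM at E18 and 205000 in each P14 sample. At P28 they summed to 154000 and 140000, and in adults to 91300 and 72100. The labelled tissue was thus borne out in every sample. Alb made up most of each sum (163456 and 163611 CPM at P14, 65945 and 49661 in adults). Alb, Ttr and Apoa1 were lower in both adults than in both P14 samples, whereas Hnf4a, Cps1 and Serpina1a were higher. The 5 neutrophil markers summed to 566 and 631 CPM at E18 and 0.103 and 0.377 in adults, where Ngp and Camp were at 0. The 3 megakaryocyte markers went from 125 and 155 to 5.72 and 5.14 CPM. Sums varied less for stellate markers (197 to 555 CPM), Kupffer cell markers (183 to 424), endothelial markers (68.1 to 333) and cholangiocyte markers (27.0 to 86.9). Single markers moved further. From E18 to adult under composition scaling, all 4 endothelial markers fell (Lyve1 by -5.02 on the log2 scale). Of 4 Kupffer cell markers 3 fell (Marco by -4.98) and 1, Clec4f, rose (2.50). Stellate markers split into 2 rising and 2 falling. Of 4 cholangiocyte markers 1, Spp1, rose (2.37), 2 fell (Krt19 by -2.22 and Krt7 by -2.24), and Sox9 was not called. Of all genes 43.8% fell and 39.5% rose. Pancreatic acinar markers summed to 163 and 309 CPM at E18 and 31.9 to 119 later, and their members moved in opposite directions. Cpa1 and Pnliprp1 were at 0 in both adults. Cela1 rose from 9.91 and 13.9 CPM at E18 to 105 and 119 in adults, nearly all of the adult sums. Muscle markers were highest in E18 replicate 1 (33.8 CPM, against 15.7 in E18 replicate 2), nearly all of it Myh11 (32.4 CPM). At P14 they summed to 2.74 CPM in replicate 1 and 21.4 in replicate 2. Acta1 had 1 and 260 reads in those P14 samples, and Tnnt3 had 11 and 180. The part of these shifts in the results below was not tested, and in bulk tissue fewer cells of a type and less RNA per cell cannot be told apart.

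Splicing regulators as a whole took a much smaller share of the reads after birth. Members held 0.838% and 0.891% of the reads on genes at E18, then 0.310% and 0.290% at P14, then 0.243% and 0.247% at P28, and 0.249% and 0.261% in adults. The E18 samples lay above every later sample, and the P28 and adult samples lay close together. By family, SR genes went from 0.2503% and 0.2664% of reads at E18 to 0.0647% and 0.0663% in adults, and hnRNP genes from 0.493% and 0.536% to 0.143% and 0.147%. Esrp genes went the other way, from 0.00470% and 0.00406% at E18 to 0.00892% and 0.00913% in adults. These shares are on the total scale.

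**Figure D1:**
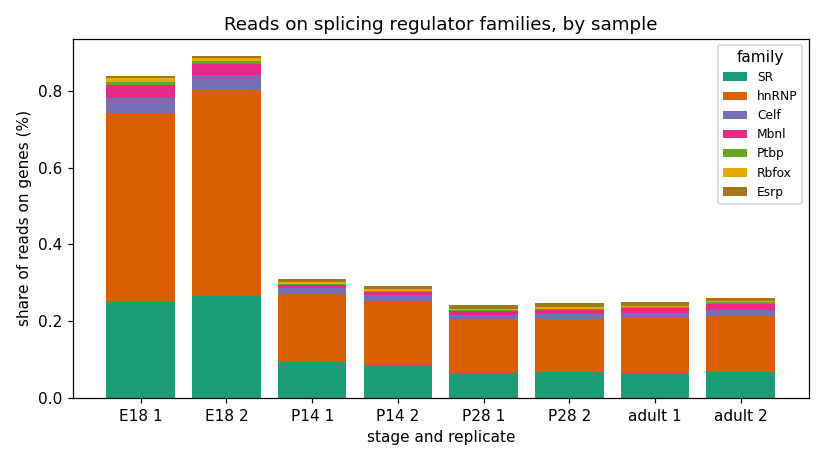
Share of the reads on genes (%, y axis from 0) that fell on the 7 families in each of the 8 samples (x axis, stage and replicate), stacked by family. The 2 E18 bars reach 0.838% and 0.891%, and the 6 later bars lie between 0.243% and 0.310%.

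From E18 to adult, 39 of the 46 tested members fell and 2 rose under composition scaling, the risers being Esrp2 and Mbnl2. Over all 17081 genes, 43.8% fell and 39.5% rose in this comparison, and the median log2 change was -0.96 for the members and -0.11 for all genes. Hnrnph3, Celf2, Mbnl1, Celf4 and Rbfox3 were not called. Past 3-fold as well, 9 members fell (Srsf1, Srsf12, Hnrnpa1, Hnrnpd, Hnrnpr, Celf3, Mbnl3, Rbfox1 and Esrp1) and 1 rose (Esrp2), against 23.8% and 16.8% of all genes.

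Total scaling deepened the falls and left 1 riser. Under it, 42 members fell and 1, Esrp2, rose, whereas 64.9% of all genes fell and 22.1% rose. The same 39 members that fell under composition scaling fell under total scaling, joined by Hnrnph3, Celf2 and Mbnl1, while Mbnl2 was no longer called. Now 30 members fell by more than 3-fold and none rose by as much, against 36.1% and 9.68% of all genes. Median log2 change was -1.81 for members and -0.95 for all genes.

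**Figure D2:**
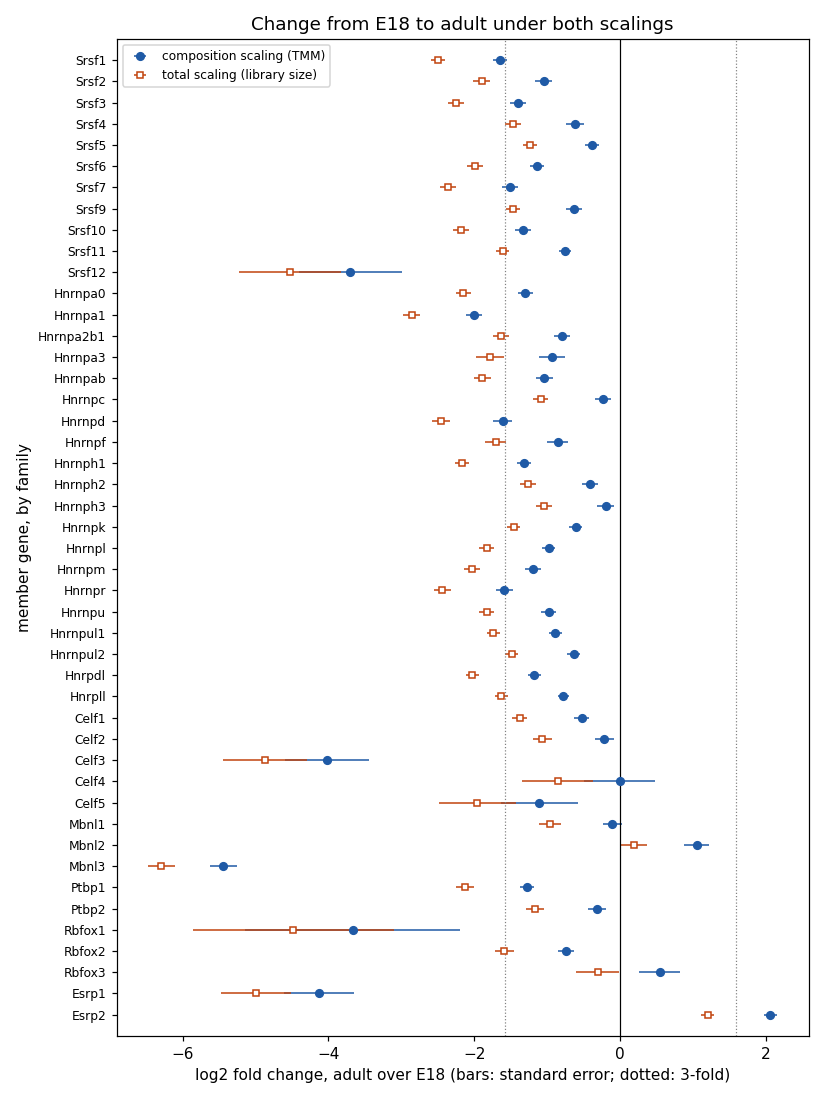
Log2 fold change from E18 to adult (x axis, with SE bars) of the 46 tested members (y axis), under composition scaling (filled circles) and total scaling (open squares), with 3-fold marked by dotted lines. Esrp2 lies right of 0 on both scales (2.06 and 1.20), whereas every SR and hnRNP gene lies left of 0 on both.

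Most of the fall came before P14. Between E18 and P14, 39 members fell and 4 rose (Srsf5, Rbfox2, Rbfox3 and Esrp2) under composition scaling, with 39.3% of all genes falling and 38.2% rising, and the median over members was -0.79. Total scaling gave 44 falls and 1 rise, against 66.8% and 18.6% of all genes, and turned Srsf5 and Rbfox2 from risers to fallers. From P14 to P28, 21 members fell and 4 rose (Hnrnpul1, Mbnl1, Mbnl2 and Esrp2), where 28.6% of all genes fell and 25.2% rose. Under total scaling 22 fell and the same 4 rose, with backgrounds of 29.1% and 24.5%. The last step was quiet. From P28 to adult 3 members fell (Srsf5, Mbnl3 and Esrp2) and 1 rose (Hnrnpc), against 13.2% and 7.94% of all genes, and under total scaling 2 fell (Srsf5 and Mbnl3) and 2 rose (Hnrnpc and Srsf7), against 12.3% and 9.52%.

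The step from E18 to P14 was the largest of the 3 for 37 of the 46 members under composition scaling and for 42 under total scaling. This count and the orders below were not made over all genes, so they are not shown to be particular to the members. Over the 3 steps, the median log2 change of all genes was -0.03, -0.05 and 0.0 under composition scaling. Under total scaling it was -0.90, -0.06 and 0.02. Levels were highest at E18 in 40 members on the first scale and in 44 on the second. In order of stage means, 14 members fell at every step on each scale, 11 of them on both, while none rose at every step and 32 turned at least once on each. Srsf3, Hnrnpa0 and Hnrnpd fell throughout on the first scale alone, and Srsf5, Ptbp2 and Rbfox2 on the second alone. Under composition scaling 18 members were lowest at P28, 18 in adults, 8 at P14 and 2 at E18. Few of those late differences passed the test, as the 4 calls of the last step show.

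**Figure D3:**
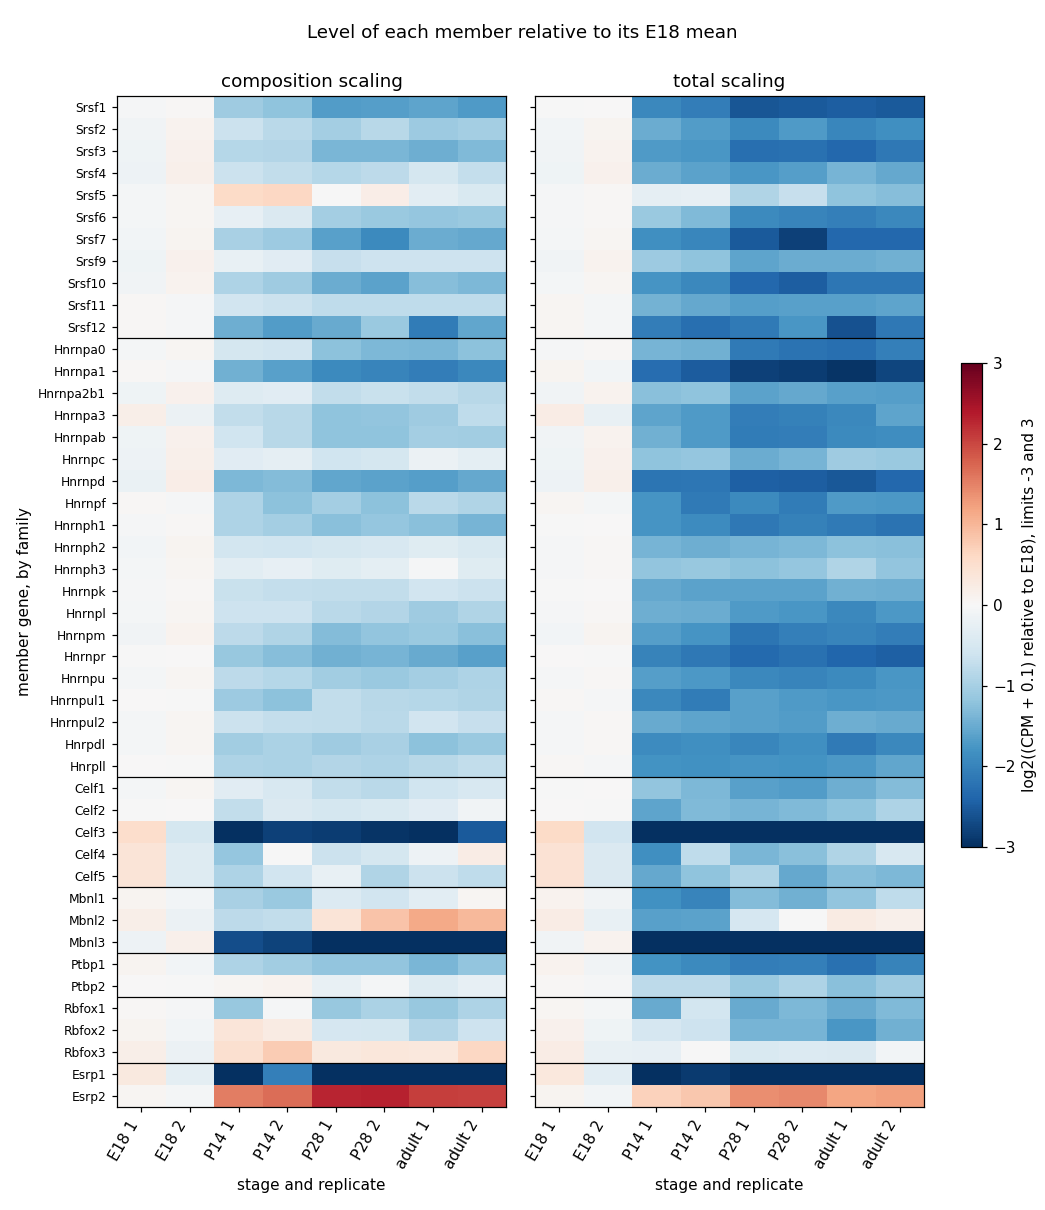
Level of each tested member (rows, by family) in each of the 8 samples (columns) as log2 of CPM plus 0.1 relative to its E18 mean, under composition scaling (left) and total scaling (right), with colours limited to 3 on either side of 0. Most rows turn blue (lower) after E18, more deeply on the right, and Esrp2 is red (higher) in the 6 later samples of both panels.

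Esrp1 and Esrp2, the 2 epithelial splicing regulators, moved apart. Esrp2 had 25.79 and 24.01 CPM at E18, then 72.7 and 79.8 at P14, then 121 and 124 at P28, and 104 and 103 in adults, on the composition scale. All later samples lay above both E18 samples, and the P28 samples were the highest. The rise from E18 to adult was 2.06 ± 0.09 on the log2 scale (SE, edgeR FDR = 4.7e-08) under composition scaling and 1.20 ± 0.09 (FDR = 1.6e-06) under total scaling. Step by step, Esrp2 rose by 1.61 ± 0.09 to P14 (edgeR FDR = 3.3e-07) and by 0.69 ± 0.09 to P28 (FDR = 0.00029), and then changed by -0.25 ± 0.09 (FDR = 0.091), a call that total scaling did not keep (-0.22 ± 0.09, FDR = 0.14).

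Esrp1 ran the other way at a far lower level. Reads on Esrp1 numbered 500 and 289 at E18, then 22 and 56 at P14, then 18 and 10 at P28, and 10 and 11 in adults. Its composition-scaled level went from 3.60 and 2.36 CPM at E18 to 0.172 and 0.166 CPM in adults, with no overlap between E18 and any later sample. The log2 change to adult was -4.13 ± 0.48 (edgeR FDR = 3.8e-05), and -4.99 ± 0.48 (FDR = 9.2e-06) under total scaling. On a per-length scale (RPKM), Esrp2 exceeded Esrp1 by 10.4 and 14.7 times in the E18 samples, 438 and 184 times at P14, 780 and 1290 times at P28, and 878 and 896 times in adults. Esrp2 was therefore already 91.2% and 93.6% of the summed Esrp RPKM at E18, and 99.9% in each adult.

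The MBNL genes, whose proteins bind YGCY-type motifs and drive adult splicing patterns in several tissues, took 3 different courses. Mbnl3 had 3823 and 4107 reads at E18 and only 48 and 39 in adults. In CPM on the composition scale this was 27.5 and 33.6 at E18, then 4.74 and 4.36 at P14, then 1.40 and 1.37 at P28, and 0.825 and 0.587 in adults. Mbnl3 thus fell at every step without overlap between stages, and its change to adult, -5.44 ± 0.19 (edgeR FDR = 1.6e-08), was the largest fall of any tested member on either scale (-6.29 ± 0.18 under total scaling). Each step passed the test, with -2.75 ± 0.16, -1.72 ± 0.17 and -0.98 ± 0.20 in turn (edgeR FDR of the last = 0.014).

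Mbnl2 dipped at P14 and then climbed. It had 21.9 and 16.9 CPM at E18, then 11.2 and 11.6 at P14, then 25.2 and 34.8 at P28, and 42.3 and 38.0 in adults. The adult samples were the highest and the P14 samples the lowest. The change from E18 was 1.05 ± 0.17 under composition scaling (edgeR FDR = 0.00036) and 0.19 ± 0.18 under total scaling (FDR = 0.33), so the call rests on the scale. The step from P14 to P28 did not, at 1.40 ± 0.17 (edgeR FDR = 0.00028) and 1.39 ± 0.18 (FDR = 0.00039).

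Mbnl1, the most abundant of the 3 per length in every sample, dipped as Mbnl2 did and came back. Its levels were 148 and 133 CPM at E18, then 71.6 and 64.7 at P14, then 106 and 94.6 at P28, and 113 and 146 in adults. The E18 and adult samples overlapped on this scale, and the change between them was -0.11 ± 0.13 (edgeR FDR = 0.45), against -0.96 ± 0.15 (FDR = 0.00023) under total scaling. The dip to P14 (-1.04 ± 0.14, edgeR FDR = 0.00011) and the rise to P28 (0.56 ± 0.13, FDR = 0.0093) passed on both scales. Of the summed Mbnl RPKM, Mbnl3 made up 9.51% and 12.7% at E18 and 0.330% and 0.202% in adults, and Mbnl2 went from 14.4% and 12.2% to 32.3% and 24.9%.

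Mbnl1 and Mbnl2 transcripts are themselves spliced at developmental exons, and the 5 variable exons below are shown because the counts, which are summed per gene, cannot separate isoforms that hold them from isoforms that lack them. Each was found as a whole exon in GENCODE M21 (GRCm38, plus strand). The 54-base exon of Mbnl1 lies at chr3:60614683-60614736 and is in 5 of its 25 annotated transcripts, the 36-base exon at chr3:60621423-60621458 in 7 of 25, and the 95-base exon at chr3:60622146-60622240 in 8 of 25. In Mbnl2, the 54-base exon at chr14:120395712-120395765 is in 3 of 10 transcripts and the 95-base exon at chr14:120404638-120404732 in 5 of 10. All 5 are coding in at least some of these transcripts. The paralogous exons match over 85.2% of 54 bases (8 differences) and 85.3% of 95 bases (14 differences), and capitals mark the bases at which the pair differs.
Mbnl1 54-base exon: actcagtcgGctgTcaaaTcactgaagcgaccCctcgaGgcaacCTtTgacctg
Mbnl2 54-base exon: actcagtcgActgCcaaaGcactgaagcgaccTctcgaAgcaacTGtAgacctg
Mbnl1 95-base exon: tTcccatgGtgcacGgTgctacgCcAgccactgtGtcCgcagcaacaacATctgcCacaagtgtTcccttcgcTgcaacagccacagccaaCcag
Mbnl2 95-base exon: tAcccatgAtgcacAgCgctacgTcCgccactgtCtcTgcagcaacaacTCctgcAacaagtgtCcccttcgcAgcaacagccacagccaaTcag
Mbnl1 36-base exon, with no counterpart in the set: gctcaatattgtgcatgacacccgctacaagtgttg

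Among CELF genes, which often oppose MBNL proteins at shared exons, 3 of the 5 tested members fell from E18 to adult under composition scaling (43.8% of all genes fell) and 4 under total scaling (64.9%), and none rose on either. Celf1, the main one per length (91.4% to 95.2% of the summed Celf RPKM in every sample), had 224 and 239 CPM at E18, then 184 and 167 at P14, then 140 and 131 at P28, and 153 and 167 in adults. P14 and adult replicate 2 met at 167 CPM, and every later sample lay below E18. Its change to adult was -0.53 ± 0.10 (edgeR FDR = 0.00082), and -1.38 ± 0.10 (FDR = 1.6e-06) under total scaling. Celf2 had 17.2 and 17.7 CPM at E18, then 10.5 and 12.8 at P14, then 12.2 and 12.7 at P28, and 13.9 and 16.1 in adults. It dropped to P14 (-0.58 ± 0.13, edgeR FDR = 0.0024), but from E18 to adult its change of -0.22 ± 0.13 was not called (FDR = 0.13) and became -1.07 ± 0.13 (FDR = 4.6e-05) under total scaling.

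Celf3, Celf4 and Celf5, known mostly from neurons, were close to the detection limit. Celf3 had 1.46 and 0.654 CPM at E18, then 0.0327 and 0.0561 at P14, then 0.05002 and 0.04196 at P28, and 0.0344 and 0.0904 in adults. That is 283 reads over the 2 E18 samples and 8 over the 2 adult samples, and the composition-scaled ratio of these sums was 16.9 (exact 95% interval 8.45 to 39.5, counting error only). Its fitted change was -4.02 ± 0.58 (edgeR FDR = 0.00016), and -3.33 without E18 replicate 1, in which Celf3 was higher. Celf5 had 0.418 and 0.204 CPM at E18, then 0.109 and 0.168 at P14, then 0.238 and 0.112 at P28, and 0.155 and 0.136 in adults. The E18 and P28 samples of Celf5 overlapped, and its fall to adult (-1.11 ± 0.53, edgeR FDR = 0.080) was lost without E18 replicate 1 (-0.49) and without either adult replicate (-1.20 without replicate 1, -1.02 without replicate 2). Celf4 overlapped between stages, with 0.670 and 0.351 CPM at E18, then 0.164 and 0.482 at P14, then 0.275 and 0.308 at P28, and 0.430 and 0.587 in adults, and its change was -0.01 ± 0.49 (FDR = 0.99, edgeR). Celf3, Celf4, Celf5, Celf6 and Esrp1 were each higher in E18 replicate 1 than in replicate 2. At P14 each of these genes was instead higher in replicate 2 than in replicate 1.

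Ptbp1, a broad repressor of exons, fell, and Ptbp2, its paralogue best known from neurons, fell less. Ptbp1 had 50.7 and 45.9 CPM at E18, 25.3 and 23.5 at P14, 21.1 in each P28 sample, and 18.6 and 21.1 in adults. No later sample reached the E18 levels, and the change to adult was -1.28 ± 0.10 (edgeR FDR = 2.6e-06) or, under total scaling, -2.13 ± 0.12 (FDR = 2e-07). Ptbp2 had 10.5 and 10.4 CPM at E18, then 10.9 and 11.2 at P14, then 8.89 and 9.97 at P28, and 7.94 and 8.81 in adults. Its change to adult was -0.32 ± 0.12 (edgeR FDR = 0.029), lost without adult replicate 1 (-0.25), and -1.17 ± 0.12 under total scaling (FDR = 1.9e-05). Per length, Ptbp2 made up 15.3% and 16.5% of the summed RPKM of Ptbp1 and Ptbp2 at E18 and 26.7% to 29.3% in the later samples. Ptbp3, listed under an older symbol, is not in that sum.

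Rbfox2, the RBFOX gene expressed outside nerve and muscle, held nearly all Rbfox reads. Its levels were 60.02 and 52.73 CPM at E18, then 71.9 and 66.8 at P14, then 39.4 and 39.0 at P28, and 30.6 and 36.7 in adults. P14 was the highest stage on this scale (0.30 ± 0.11 from E18, edgeR FDR = 0.033), whereas under total scaling the same step was a change of -0.57 ± 0.12 (FDR = 0.0022). The drop from P14 to P28 (-0.82 ± 0.11, edgeR FDR = 0.00043) and the fall from E18 to adult (-0.74 ± 0.11, FDR = 0.0002) held on both scales. Rbfox3, the gene that encodes the neuronal NeuN antigen, had 0.555 and 0.409 CPM at E18, then 0.709 and 0.875 at P14, then 0.613 and 0.629 at P28, and 0.619 and 0.783 in adults. Its change to adult was 0.54 ± 0.28 (edgeR FDR = 0.10, not called) and turned to -0.31 ± 0.29 under total scaling (FDR = 0.33). Without E18 replicate 1 (0.78) or adult replicate 1 (0.70) Rbfox3 would have been called. Rbfox1, the muscle and neuronal member, had 0.122 and 0.114 CPM at E18, then 0 and 0.112 at P14, then 0 and 0.0140 at P28, and 0 and 0.0151 in adults. At P14, replicate 2 held all 10 of its reads. Summed Rbfox1 reads were 31 over the E18 samples and 1 over the adult samples. The composition-scaled ratio of these sums was 14.8 (exact 95% interval 2.46 to 603, counting error only), and the call (edgeR FDR = 0.043) was lost without E18 replicate 1 and without adult replicate 1.

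**Figure D4:**
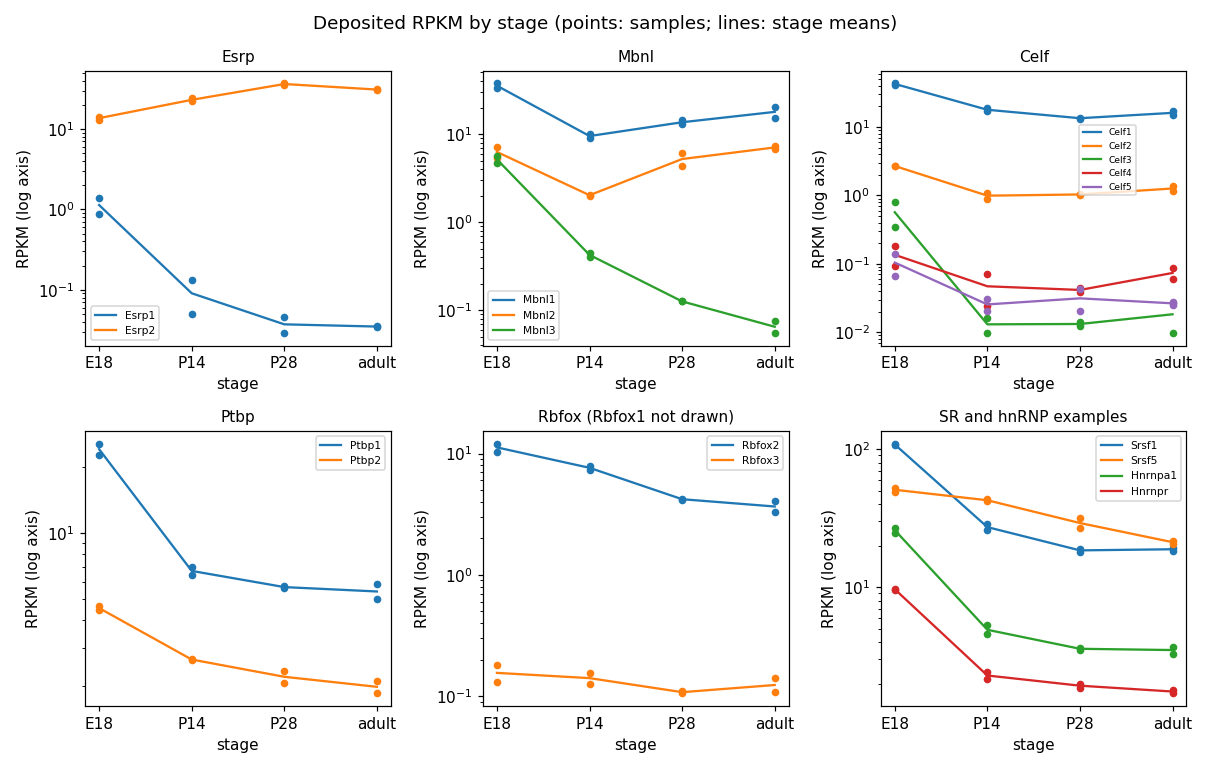
Deposited RPKM (y axis, log scale, set by total reads) against stage (x axis) for the Esrp, Mbnl, Celf, Ptbp and Rbfox genes and 4 SR and hnRNP examples, with a point per sample and lines through the stage means. Esrp2 and Esrp1 diverge, Mbnl3 falls below Mbnl1 and Mbnl2, and Rbfox1, with samples at 0, is not drawn.

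All 11 SR genes fell from E18 to adult on both scales, against 43.8% of all genes under composition scaling and 64.9% under total scaling. Composition scaling put their median at -1.14 with a range from -3.70 to -0.39, and 2 members, Srsf1 and Srsf12, passed 3-fold. Srsf1, the founding SR protein and a driver of exon inclusion, had 378 and 399 CPM at E18, then 185 and 169 at P14, then 122 and 124 at P28, and 129 and 119 in adults. Levels fell to P14 and again to P28 and then lay level, and the overall change was -1.65 ± 0.10 (edgeR FDR = 3.5e-07). Srsf7, which binds RNA through an added zinc knuckle, had 130 and 144 CPM at E18, then 69.4 and 64.7 at P14, then 43.88 and 36.05 at P28, and 49.0 and 47.3 in adults, a change of -1.51 ± 0.11 (FDR = 1.7e-06, edgeR). Srsf12 was barely detected, with 86 reads over the E18 samples and 3 over the adults (0.339 and 0.319 CPM at E18, then 0.0545 and 0.0337 at P14, then 0.05002 and 0.09792 at P28, and 0 and 0.0452 in adults). The composition-scaled ratio of the sums was 13.7 (exact 95% interval 4.52 to 67.6, counting error only), and the fitted value of -3.70 ± 0.71 (edgeR FDR = 0.0011) moved to -2.83 without adult replicate 1 and -7.94 without adult replicate 2.

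The shallowest SR falls were those of Srsf5, Srsf4 and Srsf9. Srsf5, which is known to respond to growth and metabolic signals, had 54.8 and 59.8 CPM at E18, then 85.5 and 88.8 at P14, then 56.8 and 65.3 at P28, and 45.7 and 41.9 in adults. The P14 samples were the highest on this scale, unlike in any other SR gene. The step to P14 was 0.60 ± 0.10 (edgeR FDR = 0.00045) but -0.26 ± 0.09 under total scaling (FDR = 0.027), and the change to adult was -0.39 ± 0.10 (FDR = 0.0055). Srsf4 had 108 and 132 CPM at E18, then 76.6 and 71.4 at P14, then 65.4 and 68.8 at P28, and 83.2 and 72.2 in adults (-0.62 ± 0.12, edgeR FDR = 0.00094). Srsf9 had 50.5 and 61.0 CPM at E18, then 47.4 and 44.0 at P14, then 34.2 and 35.9 at P28, and 36.3 and 35.9 in adults (-0.63 ± 0.11, edgeR FDR = 0.00046). The E18 samples of Srsf4 and Srsf9 lay above all later ones. The other members, Srsf2, Srsf3, Srsf6, Srsf10 and Srsf11, fell by 0.76 (Srsf11) to 1.40 (Srsf3). Srsf2 was the most abundant SR mRNA per length, with 238 and 268 RPKM at E18 and 64.1 and 69.3 in adults, and made up 29.4% of the summed SR RPKM at E18 and 28.9% in adults (means of 2).

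Of the 20 hnRNP genes, 19 fell from E18 to adult under composition scaling and all 20 under total scaling, and none rose on either, where 43.8% and 64.9% of all genes fell. The medians were -0.96 and -1.81. Hnrnpa1, a classic antagonist of SR proteins at silencers, fell furthest, from 34.98 and 32.79 CPM at E18 to 12.5 and 10.8 at P14, then 8.90 and 8.49 at P28, and 8.03 and 8.77 in adults. Every later sample lay below E18, and the change to adult was -2.01 ± 0.11 (edgeR FDR = 2.4e-07). Hnrnpd, which encodes the AU-rich-element binding protein AUF1, had 147 and 192 CPM at E18, then 66.3 and 68.2 at P14, then 57.0 and 54.8 at P28, and 53.2 and 57.6 in adults (-1.61 ± 0.13, edgeR FDR = 2.3e-06). Hnrnpr had 17.6 and 17.7 CPM at E18, then 7.94 and 7.21 at P14, then 6.40 and 6.70 at P28, and 6.14 and 5.60 in adults (-1.59 ± 0.12, edgeR FDR = 1.5e-06). For both genes the fall to P14 made up most of the total, and the steps after P14 were not called under composition scaling.

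Hnrnph3, Hnrnpc and Hnrnph2 moved least. Hnrnph3, one of the G-run binding H/F group, had 31.0 and 34.1 CPM at E18, then 25.9 and 27.2 at P14, then 25.4 and 26.6 at P28, and 31.7 and 25.1 in adults. Adult replicate 1 reached into the E18 range, and the change of -0.20 ± 0.12 was not called (edgeR FDR = 0.16), though it was called without that sample (-0.37) and under total scaling (-1.05 ± 0.11, FDR = 1.7e-05). Hnrnpc, which binds uridine tracts of nascent transcripts, had 35.1 and 43.4 CPM at E18, then 30.7 and 32.2 at P14, then 25.8 and 26.9 at P28, and 34.4 and 32.0 in adults. Its fall to adult (-0.24 ± 0.11, edgeR FDR = 0.073) was lost without E18 replicate 2 (-0.08) and without either adult sample (-0.29 without replicate 1, -0.20 without replicate 2). It was also the single member to rise from P28 to adult on both scales (0.33 ± 0.11, edgeR FDR = 0.086), a call lost at FDR below 0.05, with upper-quartile factors, without a filter, with the replicate block and without P14 replicate 1, P14 replicate 2 or adult replicate 2. Hnrnph2 had 11.2 and 12.4 CPM at E18, then 7.97 and 7.77 at P14, then 8.15 and 8.39 at P28, and 9.11 and 8.59 in adults (-0.41 ± 0.11, edgeR FDR = 0.0078).

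The 14 other hnRNP genes, Hnrnpa0, Hnrnpa2b1, Hnrnpa3, Hnrnpab, Hnrnpf, Hnrnph1, Hnrnpk, Hnrnpl, Hnrnpm, Hnrnpu, Hnrnpul1, Hnrnpul2, Hnrpdl and Hnrpll, fell by 0.61 (Hnrnpk) to 1.32 (Hnrnph1). Hnrnpul1 was the hnRNP that rose from P14 to P28, by 0.37 ± 0.09 (edgeR FDR = 0.0078), after a change of -1.16 ± 0.09 to P14. Per length, Hnrnpab led the family with 261 and 303 RPKM at E18 and 74.3 and 75.1 in adults, followed at E18 by Hnrnpu with 217 and 231 RPKM. The 2 leading genes kept similar shares, in that Hnrnpab was 18.3% of the summed hnRNP RPKM at E18 and 17.7% in adults, and Hnrnpu 14.5% and 14.7% (means of 2). Some hnRNP and SR genes share sequence with other genes, which may split or add reads. Of all 100-base windows of their GENCODE M21 transcripts, 31.5% of those of Hnrnpf, 25.9% of Hnrnpa1, 25.6% of Hnrnpa3, 12.4% of Hnrnpm, 9.77% of Hnrnpk, 7.59% of Hnrnph2, 6.71% of Srsf10, 6.1% of Srsf3 and 5.46% of Srsf5 also occur in another gene. The other genes are mostly annotated pseudogenes, except for Hnrnpm, whose windows recur in March2, and the values of these genes are the less certain for it.

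Ratios between close relatives within a sample do not depend on the scaling. Of 18 pairs chosen, 17 could be tested with an exact two-sided permutation test of the spread between stages (2520 distinct assignments, smallest possible p = 0.0095), the pair of Ptbp3 and Ptbp1 being left out because the tables list Ptbp3 under its older symbol Rod1, which the match by family name did not find. The smallest p was reached by 5 pairs, and 7 pairs had an adjusted p below 0.05 over the 17. The ratio of Mbnl3 to Mbnl1 moved most among them. Its log2 value was -3.0 and -2.56 at E18, then -4.49 and -4.47 at P14, then -6.82 and -6.69 at P28, and -7.67 and -8.54 in adults, a 40.1-fold fall (exact permutation p = 0.0095, adjusted p = 0.032, n = 2 per stage).

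Hnrnph2 and Hnrnph3, of the H/F group, gained on Hnrnph1 at every step. The log2 ratio of Hnrnph2 to Hnrnph1 was -3.52 and -3.44 at E18, then -3.12 and -3.06 at P14, then -2.76 and -2.82 at P28, and -2.59 and -2.55 in adults (exact permutation p = 0.0095, adjusted p = 0.032). That of Hnrnph3 to Hnrnph1 was -1.92 and -1.86 at E18, then -1.30 and -1.13 at P14, then -1.0 and -1.02 at P28, and -0.67 and -0.87 in adults (exact permutation p = 0.0095, adjusted p = 0.032). Both ratios rose at every step with no overlap between stages, by 0.91 and 1.12 from E18 to adult. The third ratio of the group, Hnrnpf to Hnrnph1, did not pass (exact permutation p = 0.095, adjusted p = 0.11), and Hnrnpf is the member with the most shared sequence.

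The remaining 4 pairs with an adjusted p below 0.05 lie among SR and hnRNP genes. Hnrpdl rose against Hnrnpd, from log2 ratios of 0.87 and 0.59 at E18 to 1.15 in each adult sample, although the test no longer passed without either P14 sample or P28 replicate 2. Srsf4 went from -0.85 and -0.68 against Srsf6 at E18 to -1.14 and -1.06 at P14 and -0.12 and -0.37 in adults, so that it was lowest at P14 and highest in adults. Srsf9, a close relative of Srsf1, was below it at E18 (-0.83 and -0.64) and above it in every later sample (0.11 to 0.34, exact permutation p = 0.019, adjusted p = 0.046). Hnrpll against Hnrnpl was lowest at P14 (-2.76 and -2.77) and highest in adults (-2.22 and -2.27), with the same p values.

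For Esrp2 and Esrp1 the log2 ratio went from 3.37 and 3.88 at E18 to 8.78 and 7.52 at P14, then 9.61 and 10.33 at P28, and 9.78 and 9.81 in adults. The shift was 71.9-fold, with an exact permutation p of 0.029 and an adjusted p of 0.054, and it rests on as few as 10 Esrp1 reads in a late sample. The adult values lay between the P28 values. Raw p values missed 0.05 for 7 of the 17 pairs, among them Mbnl2 to Mbnl1 and Ptbp2 to Ptbp1 (exact permutation p = 0.057 each, adjusted p = 0.081). Both of these ratios were nonetheless higher in each adult than in each E18 sample, by 1.18 and 0.96 on average.

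**Figure D5:**
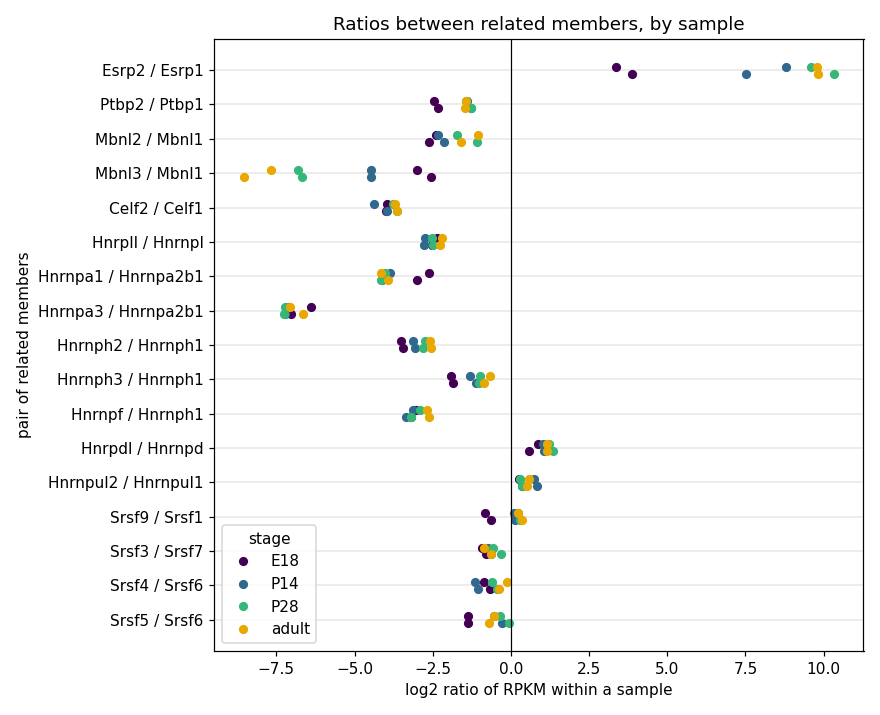
Log2 ratio of RPKM within a sample (x axis) for the 17 tested pairs of related members (y axis), with a point per sample coloured by stage. Mbnl3 to Mbnl1 spreads from -2.56 to -8.54 and Esrp2 to Esrp1 from 3.37 to 10.33, whereas most other pairs stay within a narrow band.

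Splicing factors outside the 7 families were counted on chosen lists, whose medians are set beside the -0.96 of the members and the -0.11 of all genes. All 12 genes of the U2 snRNP core, which recognises the branch site, fell from E18 to adult (median -1.10, composition scaling, on which 43.8% of all genes fell and 39.5% rose). Of 10 Sm and U1 snRNP genes 7 fell and none rose (median -1.01), and of 10 tri-snRNP genes 8 fell and 1, Prpf6, rose (median -1.04). The 6 SR-related genes all fell (median -1.20), among them Tra2a (-1.89) and Tra2b (-1.79). Kinases that phosphorylate SR proteins were mixed, with 4 of 7 falling and Srpk2 (0.70) and Srpk3 (0.90) rising (median -0.25). Srpk3 was scarce, with 0.230 and 0.226 CPM at E18 and 0.220 and 0.254 in adults on the total scale. Under total scaling neither Srpk2 (-0.15, edgeR FDR = 0.16), Srpk3 (0.06, FDR = 0.89) nor Prpf6 (-0.14, FDR = 0.53) was called.

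Of 36 other RNA-binding splicing regulators tested, 26 fell and 4 rose under composition scaling (median -0.66), against 43.8% and 39.5% of all genes. Under total scaling 33 fell and 3 rose, against 64.9% and 22.1%. The risers were Rbm47 (2.00 ± 0.10), an epithelial regulator, Rbm20 (1.71 ± 0.28), best known from titin splicing in muscle, Khdrbs3 (1.62 ± 0.09) and Tardbp (0.64 ± 0.09). Rbm47 had 1921 and 1587 reads at E18 and 3327 and 3342 in adults, whereas Rbm20 stayed between 29 and 65 reads in all samples. Rbm47, Rbm20 and Khdrbs3 also rose under total scaling, and Tardbp did not (-0.21, edgeR FDR = 0.057). Rbm38, known for its role in erythroid splicing, went from 39606 and 50004 reads at E18 to 252 and 262 in adults (-6.39 ± 0.21). The summed erythroid markers also fell, and a link between these falls was not tested.

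The members' promoters were read from RefSeq (GRCm38.p6) as windows of 250 bases before and 50 after the annotated start. Windows were found for 41 members, 70 in all, among 32851 windows of all genes. Their median GC content was 63.2% and they held a median of 24.5 CpG dinucleotides, against 52.7% and 7 over all windows. Searched on both strands, the CCAAT box (CCAAT) occurred in 45.7% of member windows and 37.4% of all windows, CACGTG in 7 of the 70 and 7.2%, TATAAA in 11.4% and 13.6%, GCGCATGC in 4.3% and 2.7%, and CCGGAAG in 14.3% and 8.9%. These are descriptions of letters and not sites. Hnrnpa1 and Mbnl3 are printed, as the 250 bases before the start, because they fell furthest among the hnRNP and Mbnl genes. Capitals mark the 4 copies of CCAAT in Hnrnpa1 (chr15:103240147-103240396, plus strand), and the whole Mbnl3 window held none of the 5 motifs (printed part chrX:51205991-51206240, minus strand).
Hnrnpa1 upstream bases: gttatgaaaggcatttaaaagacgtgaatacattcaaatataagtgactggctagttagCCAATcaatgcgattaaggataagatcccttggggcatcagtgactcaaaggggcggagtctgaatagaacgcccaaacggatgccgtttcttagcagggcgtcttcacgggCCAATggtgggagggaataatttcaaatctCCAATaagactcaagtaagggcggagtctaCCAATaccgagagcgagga
Mbnl3 upstream bases: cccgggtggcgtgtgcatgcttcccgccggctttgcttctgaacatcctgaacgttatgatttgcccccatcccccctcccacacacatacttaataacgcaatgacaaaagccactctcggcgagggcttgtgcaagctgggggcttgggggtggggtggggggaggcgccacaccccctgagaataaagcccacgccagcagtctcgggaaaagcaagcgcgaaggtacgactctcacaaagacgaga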

How the data were processed

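RNA-seq of poly(A)-selected RNA (paired-end reads of 100 bp) from 8 whole-liver samples was used. The labels name Trizol for RNA isolation, whereas the study's methods name a column kit. Per the labels and file layout, the authors deposited, for each sample, read counts per gene and RPKM values (read counts set to transcript length and to the mapped total). The submitters' processing notes name build mm9, the tables hold gene symbols without coordinates, and the aligner and strand setting are not given in the sources used here. Counts divided by RPKM gave 1 length per gene and 1 total per sample (largest relative deviation 1.49e-10 over 7731 genes), so the deposited RPKM are on the total scale.

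Samples were grouped by the stage in their labels. Counts were fitted in edgeR 4.0.16 (R 4.3.3) over all genes and 8 samples, with filterByExpr, TMM factors, a term per stage and the quasi-likelihood F test. FDR below 0.1 was the call, and SE is the log2 change divided by the square root of F. Calls with library size alone, other factors, other filters, DESeq2 1.42.0, limma 3.58.1 on log2(RPKM + 0.1), a replicate block and each sample left out were alternatives. Fold values of scarce genes came from summed reads with exact binomial intervals. The fits were first run on simulated data in which few genes changed, equally up and down. Such data hold no shift in composition, so the run does not test the choice of scaling. Reads on genes ranged from 68154675 to 106055723 per sample, and counting error is small beside replicate spread except for genes with few reads. Replicates of a stage differed by more than counting error (chi-square per degree of freedom 49.23 to 93.72), so none repeated another's library. Separate libraries from the same liver could also exceed counting error, so this check cannot tell whether the livers were separate. Samples with the same replicate number did not consistently deviate together (r from -0.414 to 0.161 over 8726 genes for the 6 pairs of stages). The replicate numbers were therefore not used as pairs. The lowest r, -0.414, was that of P28 and adult, where samples with unlike replicate numbers tended to deviate together. The part of this shared deviation in the calls from P28 to adult was not tested. P values measure the spread between these samples only.

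The members and lists were chosen with earlier results of these data known. Values in every sample are given for all tested Esrp, Celf, Mbnl, Ptbp and Rbfox genes and, within SR and hnRNP, for the 3 with the highest and the 3 with the lowest log2 change from E18 to adult and any other past 3-fold. No SR or hnRNP gene rose, so the highest are the shallowest falls. Exons and shared windows came from GENCODE M21 (GRCm38), exon sequences from the study's supplementary tables and promoters from RefSeq. No coordinate was converted between builds.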

Additional observations from a re-analysis of the deposited data

How the results depend on the processing

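More members fell than rose from E18 to adult under every alternative run, and the number that fell from E18 to adult stayed within 1.5 times of 39 in all but the 3-fold threshold. With a 3-fold threshold added, 9 members fell and 1 rose from E18 to adult, 4 fell and 1 rose to P14, 1 fell and 0 rose from P14 to P28, and 0 fell and 0 rose from P28 to adult. Library size alone gave 1 riser from E18 to P14, 1 from E18 to adult and 2 from P28 to adult, and limma on log2(RPKM + 0.1), which is also on the total scale, gave 1, 1 and 2. The single riser from P28 to adult, Hnrnpc, rests on a narrow margin: 0 members rose with upper-quartile factors, without a filter, at FDR below 0.05 or with the replicate block, and 2 rose with DESeq2. Leaving out 1 sample at a time gave 0 to 1 risers for that step (0 without P14 replicate 1, P14 replicate 2 or adult replicate 2), 0 to 3 fallers (0 without adult replicate 2), 13 to 23 fallers from P14 to P28 (13 without P28 replicate 1) and 2 to 4 risers from E18 to P14 (2 without E18 replicate 2). Among values from E18 to adult, those that changed sign were Celf4 (-0.39 to 0.54 on leaving out a sample, with 0.54 without E18 replicate 1 and 0.20 without adult replicate 1), Mbnl1 (-0.32 to 0.06, the latter without adult replicate 1), Rbfox3 (-0.31 with library size alone, -0.19 with limma) and the log2 ratio of Hnrnpa3 to Hnrnpa2b1 (-0.47 to 0.17, with 0.17 and 0.06 without the same samples as Celf4). From E18 to P14, library size alone changed the sign of Srsf5 (0.60 to -0.26), Rbfox2 (0.30 to -0.57), Rbfox3 (0.71 to -0.16) and Ptbp2 (0.08 to -0.79). From P28 to adult it did so for Srsf3, Hnrnpa0 and Hnrnpd, none of them called on either scale. The cause of these changes was not tested. With the replicate number as a block, 39 members fell and 2 rose from E18 to adult, 39 and 4 to P14, 18 and 4 from P14 to P28, and 2 and 0 from P28 to adult. With 2 samples per stage, low-count genes (Celf3 to Celf6, Rbfox1, Rbfox3, Srsf12 and late Esrp1) are limited by depth.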
